A study of Xenopus laevis with 3 samples.

Results

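The genes that drive the cell cycle and copy the DNA were examined in the livers of female Xenopus laevis, the African clawed frog. They were chosen by symbol and by no cut on a measured value, but with earlier results of these data known. The rule took in minichromosome maintenance (mcm), origin, primase, polymerase, clamp and clamp loader genes, cyclins A, B, D and E, the cyclin-dependent kinases cdk1, cdk2, cdk4 and cdk6 and their inhibitors, cdc genes, E2F factors, and kinases and checkpoint genes of mitosis. The rule found 136 gene copies of 97 genes, read by 177 probe sets, out of 11303 symbols on the array. Where several probe sets read a copy, the one with the highest mean over the arrays stood for it, and no filter on level was applied. The suffix .L or .S names the copy on the long or short chromosome set of this allotetraploid frog. There were 79 .L copies, 55 .S copies and 2 symbols with no suffix.

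One group of 3 frogs received artemisinin at 200 mg/kg, an antimalarial drug, and another group of 3 frogs received pregnenolone at 50 mg/kg, the steroid from which other steroid hormones are made. Both compounds were dissolved in DMSO and injected into the body cavity on 2 consecutive days. The control frogs received DMSO alone in parallel, and their number, like the age and strain of all frogs, is not spelled out. Livers were taken 24 h after the last injection, and the study sought target genes of xlCAR, the frog constitutive androstane receptor. The RNA of each group was pooled and hybridised to 1 Affymetrix array, so every value below is a single reading on the log2 scale, no difference has a replicate error and none was tested.

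Before a cell copies its DNA, the origin recognition complex, Cdc6 and Cdt1 load the ring-shaped Mcm helicase onto origins, and geminin blocks a second loading. Cyclin-dependent kinases bound to their cyclins then start replication and later mitosis, while E2F factors control the transcription of many of these genes. Much of this machinery was worked out in extracts of Xenopus eggs, which store it in quantity. In the adult liver most hepatocytes rest outside the cycle, and dividing cells in such a sample can also be blood cells, immune cells or stromal cells.

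Most of these genes differed little between the 3 arrays, and 126 of the 136 copies lay within 1.5-fold in all 3 comparisons. Most symbols on the array did so too in each comparison. Within 1.5-fold were 10781 of the 11303 with artemisinin against DMSO, 10355 with pregnenolone against DMSO and 10314 between the compounds. With artemisinin against DMSO, 0 copies were at least 1.5-fold higher and 1 was lower, where 2.35% and 2.26% of all 11303 symbols were. With pregnenolone against DMSO, 2 copies were at least 1.5-fold higher and 4 lower, against 4.64% and 3.75% of all symbols. With artemisinin against pregnenolone, which differ in dose, 4 were higher and 3 lower, against 3.89% and 4.86% of all symbols. As shares of the 136 copies, the pregnenolone counts are 1.47% and 2.94%, both under the share of all symbols. Past 2-fold were 0 copies with artemisinin against DMSO (all symbols 0.947% higher and 0.557% lower), and 1 higher and 1 lower both with pregnenolone against DMSO (1.44% and 1.06%) and between the compounds (1.40% and 1.23%).

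Small differences on the pregnenolone array nevertheless ran mostly one way. Differences over 0.1 (log2) were counted, a band set after the values were seen. Of the 136 copies, 47 were over 0.1 lower with pregnenolone than with DMSO and 14 were over 0.1 higher. Over all symbols the shares were 23.3% and 25.6%, so that 34.6% of the copies stood against 23.3% and 10.3% against 25.6%. Counting any difference, 70 copies were lower (all symbols 36.6%), 20 higher (all symbols 39.0%) and 46 identical (all symbols 24.4%). The median over probe sets was 5.605 on the pregnenolone array and 5.617 on the DMSO array. Centring the arrays on it would shift every difference up by 0.012, and identical values would then count as higher. Counts of any difference, here and by role below, depend on such a shift. The median over the copies was -0.01, beside 0 over all symbols, and the quartiles were -0.18 and 0. The sizes were thus small, and 75 of the 136 copies lay within 0.1 of DMSO (5777 of all 11303 symbols). Not every role leaned lower, since copies for mitotic entry and checkpoint kinases had 8 higher, 7 lower and 4 identical.

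Artemisinin left the group near DMSO. Over 0.1 higher than DMSO were 30 copies and over 0.1 lower 19, against 21.1% and 23.1% of all symbols, and the median was 0 for the copies and for all symbols. Counting any difference from DMSO, 50 copies were higher with artemisinin (all symbols 37.1%), 41 lower (38.8%) and 45 identical (24.1%). Set directly against the pregnenolone array, the artemisinin array was over 0.1 higher for 54 copies and lower for 14, against 23.9% and 27.6% of all symbols, with a median of 0.04. Among the 70 copies whose values differed on all 3 arrays, the lowest was on the artemisinin array for 11, on the pregnenolone array for 49 and on the DMSO array for 10. Over the 6800 symbols of that kind on the array, the lowest value was on the artemisinin array for 34.4%, on the pregnenolone array for 34.6% and on the DMSO array for 31.1%.

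**Figure D1:**
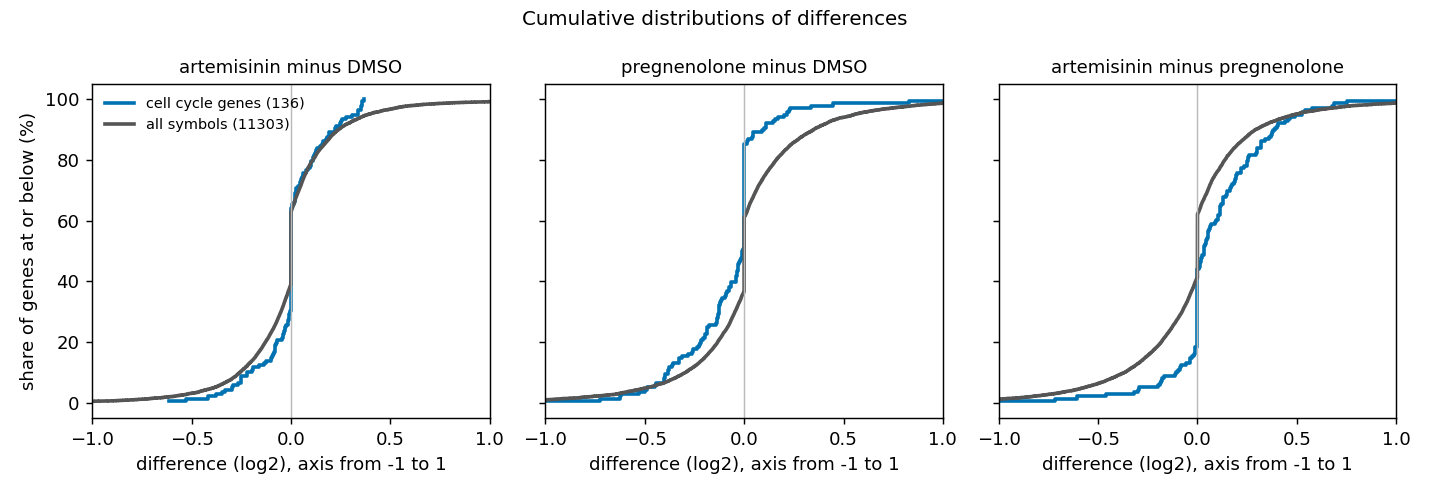
Cumulative share of genes (vertical axis, percent) at or below a given log2 difference (horizontal axis, shown from -1 to 1) for the 136 cell cycle and DNA replication copies and for all 11303 symbols, 1 panel per comparison. With pregnenolone against DMSO the line of the 136 copies lies above that of all symbols on most of the axis, with 47 copies over 0.1 lower and 14 over 0.1 higher, and the steps at 0 are values that were identical on both arrays.

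Readings near the bottom of the scale carry little information, and many of these genes lay there. The mean of the median probe set was 5.61, and it was reached by 75 of the 136 copies (55.1%), against 66.2% of all symbols. Among these 75 copies, 8 were over 0.1 higher and 31 over 0.1 lower with pregnenolone than with DMSO, against 32.2% and 27.5% of the 7478 symbols at that level. With artemisinin against DMSO the counts were 15 and 14 (23.7% and 28.1%), and with artemisinin against pregnenolone 33 and 11 (27.2% and 34.7%). At 1.5-fold, 0 of the 75 were higher and 1 lower with artemisinin than with DMSO (3% and 2.98%), 2 higher and 3 lower with pregnenolone than with DMSO (6.22% and 5.03%), and 2 higher and 3 lower with artemisinin than with pregnenolone (4.97% and 6.53%). By role the 75 were 11 of 27 licensing and origin copies, 18 of 23 fork copies, 6 of 21 cyclins, 6 of 6 cyclin-dependent kinases and 2 of 4 kinase inhibitors. Of the other classes, 9 of 19 copies for mitotic entry and checkpoint kinases, 12 of 23 for the spindle and 3 of 5 E2F copies reached it. So did 8 of 8 cdc copies grouped as having a role elsewhere. Values identical to all 6 deposited decimals on the 3 arrays were found for 30 copies (22.1%, against 14.9% of all symbols), and on a pair of arrays for another 36 (26.5%, against 25%). RMA in its usual form takes medians over the probes and arrays of a probe set, which can return the same value for several of so few arrays.

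The copies furthest apart between arrays were birc5l.S and cdk2.S. The gene birc5l.S (Entrez gene 735055), a frog survivin also called xSurvivin2 and part of the complex that carries Aurora B kinase to chromosomes, read 6.56 with artemisinin, 4.91 with pregnenolone and 6.59 with DMSO. The pregnenolone array alone was low, 3.21-fold below DMSO (difference -1.68), and the artemisinin array differed from DMSO by -0.03. A second probe set of birc5l.S read 5.21, 4.97 and 5.47 in the same order, which is the same direction with pregnenolone at a smaller size (-0.50) and all under the median probe set. The probe set used has a suffix that marks possible binding to related transcripts. The other copy, birc5l.L, read 4.73 on all 3 arrays.

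For cdk2.S (399314), a copy of the kinase that starts replication with cyclin E, the values were 6.13 with artemisinin, 7.66 with pregnenolone and 6.54 with DMSO. Here the pregnenolone array was the high one, 2.17-fold above DMSO (1.12) and 2.89-fold above artemisinin (artemisinin minus pregnenolone -1.53). The other copy went the opposite way at a small size, since cdk2.L read 6.52 with artemisinin, 6.27 with pregnenolone and 6.53 with DMSO. Each copy has 1 probe set.

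**Figure D2:**
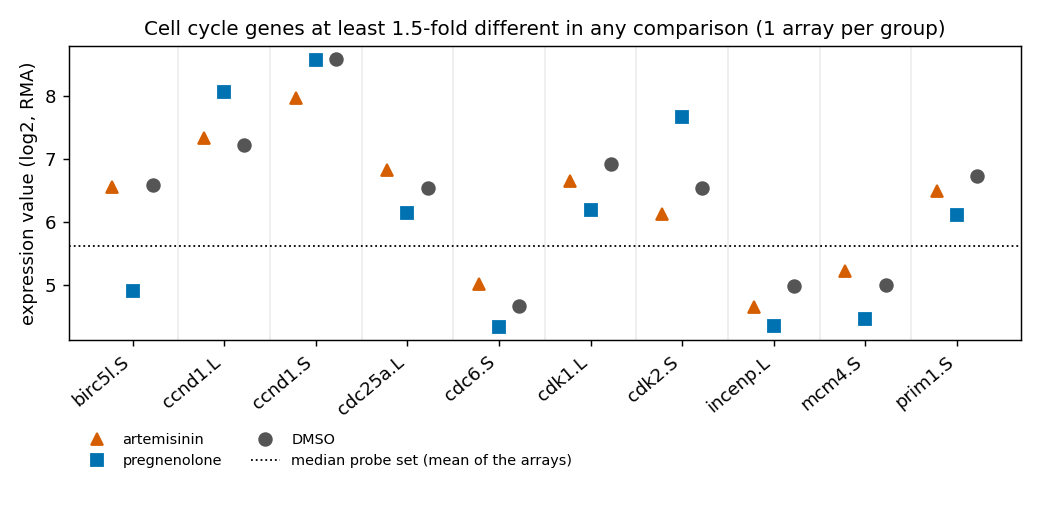
Expression values (log2, RMA) on the artemisinin (triangles), pregnenolone (squares) and DMSO (circles) arrays for the 10 copies that differed by at least 1.5-fold in any comparison, with the median probe set as a dotted line. The pregnenolone square is the lowest of the 3 for birc5l.S, cdc25a.L, cdc6.S, cdk1.L, incenp.L, mcm4.S and prim1.S, and the highest for ccnd1.L and cdk2.S.

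Licensing and origin genes numbered 27 copies, none of which differed from DMSO by 1.5-fold. Over 0.1 lower than DMSO with pregnenolone were 10, and 3 were higher (all symbols 23.3% and 25.6%), with a median of -0.02. With artemisinin 2 were over 0.1 lower and 8 higher (all symbols 23.1% and 21.1%), with a median of 0. Between the compounds mcm4.S and cdc6.S passed 1.5-fold.

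The 6 subunits mcm2 to mcm7 form the ring of the replicative helicase and were read by 11 copies. With pregnenolone 0 of the 11 were higher than DMSO, 7 were lower and 4 identical, with a median of -0.13. Over all symbols 39% were higher, 36.6% lower and 24.4% identical. With artemisinin 4 were higher, 2 lower and 5 identical (all symbols 37.1%, 38.8% and 24.1%), with a median of 0. For mcm7.L the values were 7.27 with artemisinin, 6.95 with pregnenolone and 7.35 with DMSO, and for mcm7.S they were 6.46, 6.06 and 6.46. Both mcm7 copies were thus 0.40 lower with pregnenolone than with DMSO.

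At mcm4 and mcm6.2 one copy was lower with pregnenolone than with DMSO and its partner was level. The copy mcm4.S (373601) read 5.22 with artemisinin, 4.47 with pregnenolone and 5.0 with DMSO, a 1.69-fold gap between the compounds (0.75), at values under the median probe set. Its partner mcm4.L stood at 6.04 on all 3 arrays. Likewise mcm6.2.L read 6.23 with artemisinin, 5.88 with pregnenolone and 6.23 with DMSO, beside mcm6.2.S at 5.65, 5.53 and 5.53. RefSeq lists zmcm6 as a synonym of mcm6.2 and mmcm6 of mcm6, read here as the zygotic and maternal forms of this subunit. The mcm6.L value lay far under the median probe set, at 2.87 with artemisinin, 2.83 with pregnenolone and 2.96 with DMSO. On the artemisinin array mcm2.L was the highest, at 6.95, against 6.37 with pregnenolone and 6.59 with DMSO, and so was mcm5.L, at 6.18, against 5.78 with pregnenolone and 5.87 with DMSO. The remaining copies, mcm3.L (4.46) and mcm5.S (5.11), were identical on all 3 arrays.

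**Figure D3:**
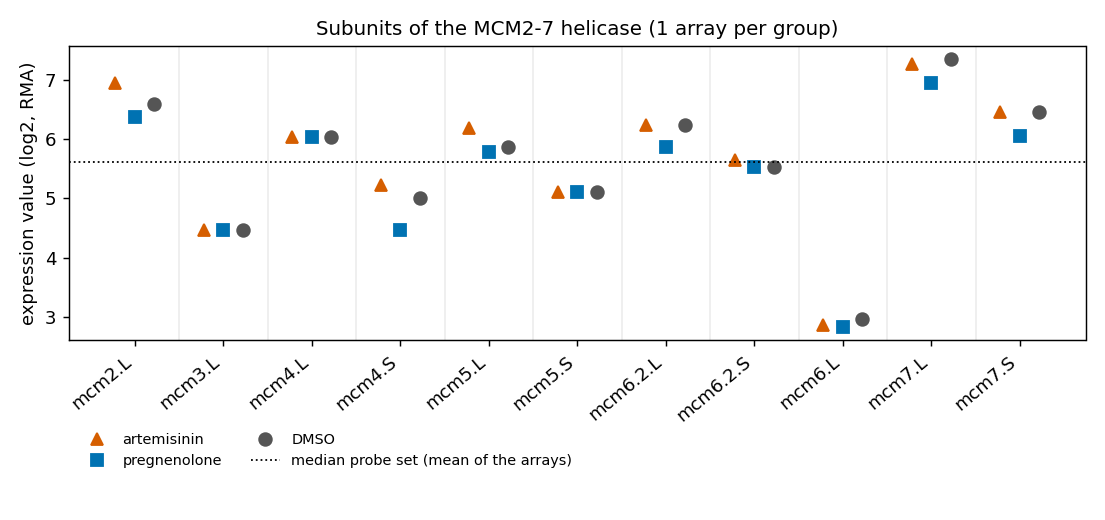
Expression values (log2, RMA) of the 11 copies of mcm2 to mcm7 on the artemisinin (triangles), pregnenolone (squares) and DMSO (circles) arrays, with the median probe set as a dotted line. No pregnenolone square lies above its DMSO circle, both mcm7 copies are 0.40 below it, and 3 copies have the same value on every array.

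Among the loading factors, cdc6.S (398082), the ATPase that helps to load the helicase, read 5.03 with artemisinin, 4.34 with pregnenolone and 4.67 with DMSO. The difference between the compounds was 1.61-fold (0.69), with all values under the median probe set, while cdc6.L read 4.68, 4.63 and 4.68. Geminin, the inhibitor of loading, read 5.18 with artemisinin, 4.99 with pregnenolone and 5.48 with DMSO at gmnn.L, and 5.57, 5.55 and 5.56 at gmnn.S. The partner of Cdc6, cdt1.L, read 5.95 with artemisinin and 6.04 with both pregnenolone and DMSO. Of the origin recognition genes, orc5.L was higher than DMSO with both compounds, at 5.23 with artemisinin and 5.22 with pregnenolone against 4.88 with DMSO. The orc4.L value was 6.91 on every array, and orc1.L, orc2.S, orc3.S and orc6.L differed from DMSO by at most 0.22 in size. Copies of cdc45, which joins the helicase when it is switched on, differed by no more than 0.05.

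The 23 replication fork copies that the symbol rule took in were lower than DMSO or identical with pregnenolone. None (0) was higher than DMSO, 18 were lower and 5 identical, and 14 were over 0.1 lower, with a median of -0.13 beside 0 over all symbols. Of all symbols 39% were higher with pregnenolone, 36.6% lower and 24.4% identical, and 23.3% were over 0.1 lower. With artemisinin 11 were higher than DMSO, 7 lower and 5 identical (all symbols 37.1%, 38.8% and 24.1%), with a median of 0. One copy passed 1.5-fold. It was prim1.S (380513), the catalytic subunit of the primase that lays down the RNA start of each new strand, at 6.49 with artemisinin, 6.12 with pregnenolone and 6.74 with DMSO (pregnenolone minus DMSO -0.62, 1.54-fold lower). Fork genes outside the rule lay on both sides of DMSO. The flap endonuclease gene fen1.L, which trims lagging strand fragments, read 5.86 with artemisinin, 6.16 with pregnenolone and 5.52 with DMSO (pregnenolone minus DMSO 0.64), and the difference with pregnenolone was also above 0 at tipin.L (0.43), gins3.L (0.18) and the ligase gene lig1.L (0.13). It was below 0 at wdhd1.L (-0.69), rpa3.L (-0.51), fen1.S (-0.34), timeless.L (-0.22) and rpa1.L (-0.11). Smaller differences below 0 were read at rpa3.S (-0.07), gins4.L (-0.06), rpa2.L (-0.03) and tipin.S (-0.02), and above 0 at rpa2.S (0.04). The values of gins1.S, gins2.L and clspn.S were identical with pregnenolone and DMSO.

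The sliding clamp PCNA holds the polymerases on DNA. For pcna.L the values were 10.86 with artemisinin, 10.48 with pregnenolone and 10.61 with DMSO, and for pcna.S they were 9.03, 8.49 and 8.87. Both copies were highest with artemisinin and lowest with pregnenolone, 0.38 and 0.54 apart between the compounds. Clamp loader genes, by contrast, were mostly level, since rfc2.L, rfc3.L, rfc4.L and rfc5.S each differed by at most 0.05 in any comparison. The exception was rfc5.L, at 5.53 with artemisinin against 5.83 with both pregnenolone and DMSO. Its other copy rfc5.S read 5.81 with artemisinin and 5.80 with both pregnenolone and DMSO.

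Polymerase subunits were lowest with pregnenolone at several genes. The value of pold1.L, the catalytic subunit of polymerase delta, was 6.34 with artemisinin, 5.85 with pregnenolone and 6.35 with DMSO. Its accessory subunit pold3.L read 5.37 with artemisinin, 5.05 with pregnenolone and 5.38 with DMSO. For pola1.S, the catalytic subunit of polymerase alpha, the values were 6.54, 6.08 and 6.52 in that order, with a second probe set at 5.27, 5.24 and 5.27. In each of these the pregnenolone array was the low one and the other arrays lay within 0.02 of each other. Smaller differences from DMSO were seen with pregnenolone at pole.L (-0.20), pole2.L (-0.13), pold2.L (-0.11) and pole4.L (-0.22), and none at pola2.L or pole3.L. At pole4.L the artemisinin array was the lowest, at 7.69, against 7.72 with pregnenolone and 7.94 with DMSO. A second pole4.L probe set read 7.58 with both compounds and 7.71 with DMSO. Topoisomerase top2a.L, which untangles the daughter chromosomes, read 7.70 with artemisinin, 7.31 with pregnenolone and 7.62 with DMSO, while a second probe set stood at 5.15 on every array. The ribonucleotide reductase gene rrm1.L read 7.55 with artemisinin, 7.30 with pregnenolone and 7.53 with DMSO. The other rrm1.L probe sets read 6.75, 6.92 and 7.32, and 6.59, 6.71 and 6.82, so that at 2 of the 3 the artemisinin array and not the pregnenolone array was the lowest.

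**Figure D4:**
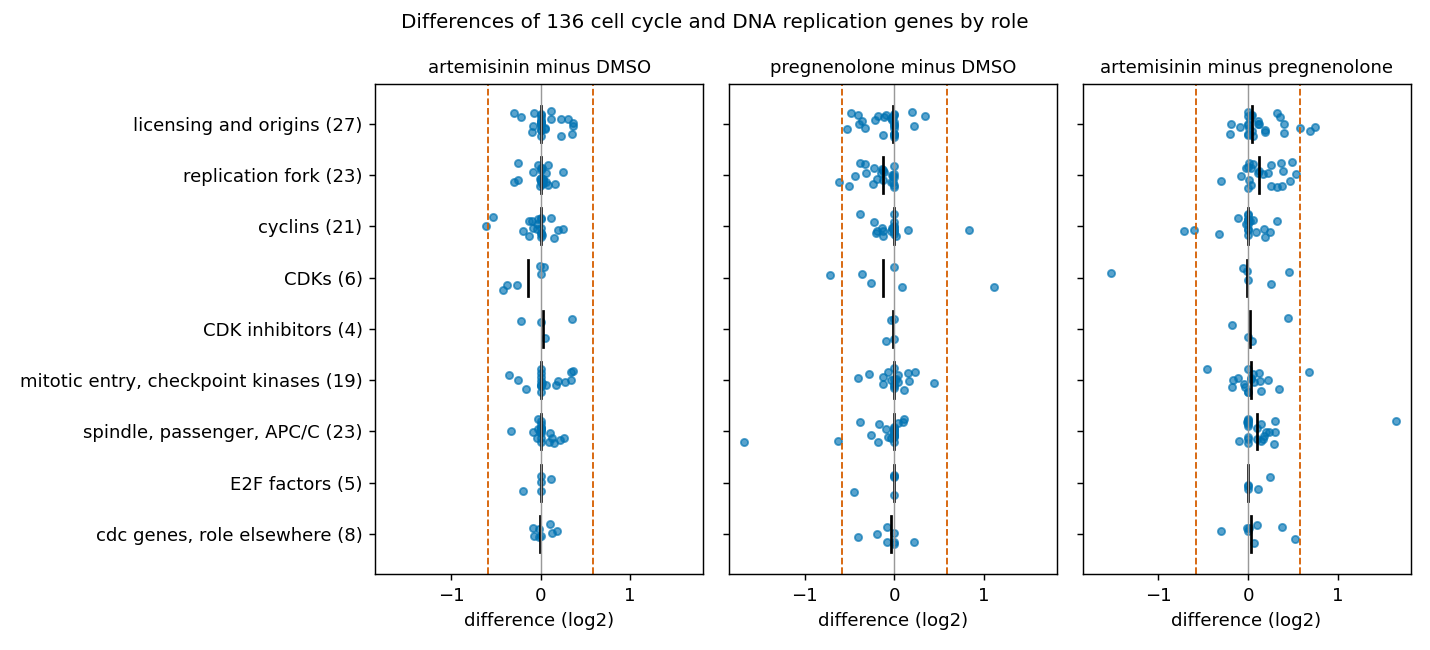
Log2 differences of the 136 copies by role (rows, with the number of copies) in the 3 comparisons (panels); each point is a copy, the black bar is the median of the class and the dashed lines mark 1.5-fold. In the pregnenolone minus DMSO panel 0 of 23 replication fork copies lie above 0 (all symbols 39%). The points furthest out there are birc5l.S (-1.68) and cdk2.S (1.12).

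Cyclins, the regulatory partners of the kinases, numbered 21 copies, of which 15 had means under the median probe set. The medians were 0 with artemisinin and -0.01 with pregnenolone, each against DMSO. Cyclin D1, which links growth signals to the start of the cycle, differed at both copies but in different comparisons. The copy ccnd1.L (379937) read 7.34 with artemisinin, 8.05 with pregnenolone and 7.22 with DMSO, so that pregnenolone was 1.78-fold above DMSO (0.83). The copy ccnd1.S (379161) read 7.96 with artemisinin, 8.57 with pregnenolone and 8.58 with DMSO, so that artemisinin was 1.53-fold below DMSO (-0.61). At both copies the artemisinin array was lower than the pregnenolone array, by 0.72 at ccnd1.L and by 0.60 at ccnd1.S.

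For cyclin D2, ccnd2.S read 9.05 with artemisinin, 8.96 with pregnenolone and 9.15 with DMSO. The copy ccnd2.L, under the median probe set, read 4.74 with artemisinin and 4.49 with both pregnenolone and DMSO. Among the mitotic cyclins, ccnb1.2.S read 6.24 with artemisinin, 6.05 with pregnenolone and 6.44 with DMSO. Its partner ccnb1.2.L, under the median probe set, read 4.97, 5.09 and 5.11 in that order. For ccnb2.L the values were 6.13 with artemisinin and 6.12 with both pregnenolone and DMSO. Under the median probe set, ccnb2.S read 4.35, 4.35 and 4.38, and ccnb1.S 3.38, 3.40 and 3.38. The ccnb3.L value was 3.66 with artemisinin, 3.98 with pregnenolone and 4.18 with DMSO, far under the median probe set, and ccnb3.S read 6.99, 6.93 and 7.07. Cyclin A2, which acts in DNA synthesis and in early mitosis, read 5.21 with artemisinin, 5.03 with pregnenolone and 5.25 with DMSO at ccna2.L and 5.14 on every array at ccna2.S. The cyclin E copies, with values under the median probe set, differed from DMSO by at most 0.16.

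Of the cyclin-dependent kinases, cdk1, the kinase of mitosis, was lower than DMSO at both copies on both treated arrays. The copy cdk1.L (379785) read 6.65 with artemisinin, 6.19 with pregnenolone and 6.92 with DMSO, 1.65-fold lower with pregnenolone (-0.72). The copy cdk1.S read 6.14 with artemisinin, 6.16 with pregnenolone and 6.52 with DMSO, which is -0.38 and -0.36 against DMSO. The comparisons with DMSO share the DMSO array, so a high reading there would lower both. The kinases of the D cyclins stayed close to DMSO, with cdk6.L at 8.83 with artemisinin, 8.89 with pregnenolone and 8.80 with DMSO, and cdk4.S at 9.13 on every array. A second cdk4.S probe set read 8.82, 8.95 and 8.67.

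The 4 inhibitor genes measured were within 1.5-fold throughout. The p21 gene cdkn1a.L, a target of p53 in mammals, read 3.74 with artemisinin, 3.30 with pregnenolone and 3.39 with DMSO, far under the median probe set. For cdkn2d.S, an inhibitor of the D-cyclin kinases, the values were 6.09, 6.27 and 6.31. The p27 gene cdkn1b.S differed by 0.04 at most, and cdkn2b.L read 4.88 on all 3 arrays.

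Mitotic entry is set by Wee1 kinases, which hold Cdk1 inactive, and by Cdc25 phosphatases, which release it. The 19 copies of this class, with Polo-like and checkpoint kinases, had medians of 0 in both comparisons with DMSO. With pregnenolone 8 were higher than DMSO, 7 lower and 4 identical (all symbols 39%, 36.6% and 24.4%). With artemisinin 9 were higher, 3 lower and 7 identical (all symbols 37.1%, 38.8% and 24.1%). The copy cdc25a.L (398141) read 6.82 with artemisinin, 6.14 with pregnenolone and 6.55 with DMSO, so that the compounds were 1.60-fold apart (0.68) with DMSO in between. At cdc25a.S the values were 4.76 with artemisinin, 4.54 with pregnenolone and 4.39 with DMSO, while its further probe sets read 3.56 and 3.08, each on every array. The wee1.L value was higher with both compounds, at 8.22 with artemisinin and 8.33 with pregnenolone against 7.89 with DMSO, while wee1.S read 7.06, 7.23 and 7.22. A second wee1.S probe set read 3.59, 3.70 and 3.70. The oocyte forms wee2.L (3.66 on every array) and wee2.S (5.21, 5.15 and 5.15) lay under the median probe set.

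Polo-like kinase 1, which acts at several steps of mitosis, read 6.12 with artemisinin, 6.09 with pregnenolone and 6.37 with DMSO at plk1.S. A second plk1.S probe set read 4.85, 4.95 and 5.43, which puts artemisinin 0.59 below DMSO. It was the only 1 of the 41 further probe sets of these copies that differed by at least 1.5-fold in any comparison. The immediate-early kinase gene plk2 was higher with artemisinin at both copies, at 6.68 against 6.50 with DMSO for plk2.L and at 5.87 against 5.54 with DMSO for plk2.S. The phosphatase gene cdc14b.S read 5.82 with artemisinin, 6.28 with pregnenolone and 6.17 with DMSO, and the checkpoint kinase genes chek1.S and chek2.L differed from DMSO by at most 0.12.

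Genes of the spindle checkpoint, the chromosomal passenger complex and the anaphase-promoting complex numbered 23 copies. With pregnenolone 3 were higher than DMSO, 9 lower and 11 identical, and with artemisinin 7 were higher, 6 lower and 10 identical. Over all symbols 39% were higher, 36.6% lower and 24.4% identical with pregnenolone, and 37.1%, 38.8% and 24.1% with artemisinin. The count lower with pregnenolone was thus near the share of all symbols. Beside birc5l.S, the passenger gene incenp.L (398105), a scaffold for Aurora B, passed 1.5-fold, at 4.65 with artemisinin, 4.36 with pregnenolone and 4.98 with DMSO (pregnenolone 1.54-fold lower, -0.63). These values lie under the median probe set, and incenp.S read 4.73 on every array. Aurora B itself read 6.17 with artemisinin, 6.00 with pregnenolone and 6.18 with DMSO at aurkb.L and 5.94, 5.84 and 5.84 at aurkb.S.

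The checkpoint kinase gene bub1.L read 6.83 with artemisinin, 6.60 with pregnenolone and 6.86 with DMSO, and its second probe set 5.72, 5.65 and 5.83, so that the pregnenolone array was lowest at both. Aurora A read 5.60 with artemisinin, 5.30 with pregnenolone and 5.34 with DMSO at aurka.L and 5.51 on every array at aurka.S. Activator and subunit genes of the anaphase-promoting complex were mixed: cdc20.L (5.64) and cdc20.S (6.17) were identical on the 3 arrays, whereas cdc23.L read 4.90 with artemisinin, 4.60 with pregnenolone and 4.98 with DMSO, and cdc23.S 4.57, 4.43 and 4.61. A second cdc20.L probe set read 4.12, 4.38 and 4.12, with pregnenolone the highest. The subunit genes cdc16.L (6.69, 6.79 and 6.69) and cdc27.S (6.23, 6.24 and 6.13) were also highest with pregnenolone, each by about 0.1 above DMSO. The survivin copies birc5.L and birc5.S, also called xSurvivin1, were identical on the 3 arrays at 3.54 and 4.08.

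Of 5 E2F copies, the activator e2f1.L read 6.04 with artemisinin, 5.79 with pregnenolone and 6.23 with DMSO. Its second probe set read 4.37, 4.20 and 4.37. The copy e2f3.S, under the median probe set, read 5.49 with artemisinin and 5.38 with both pregnenolone and DMSO. The repressors e2f4.S (6.91), e2f7.L (4.22) and e2f8.L (6.35) were identical on all 3 arrays, while a second e2f7.L probe set read 4.15 with artemisinin, 4.02 with pregnenolone and 4.28 with DMSO. The rule also took in 8 cdc copies grouped as having a role elsewhere, all but cdc34.L of which were left out in an alternative setting. Of these, cdc37.S, a partner of the chaperone Hsp90, read 9.78 with artemisinin, 9.40 with pregnenolone and 9.60 with DMSO. The transcription elongation gene cdc73.S read 8.35 with artemisinin, 7.83 with pregnenolone and 8.23 with DMSO, and the GTPase gene cdc42.L read 9.82 on every array. A further cdc42.L probe set read 7.50 with artemisinin, 7.69 with pregnenolone and 8.03 with DMSO.

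Other proliferation genes, outside the rule, were read as a list of 98 genes, of which 83 were measured by 121 symbols. With pregnenolone 55 of the 121 (45.5%) were over 0.1 lower than DMSO and 12 (9.92%) higher, against 23.3% and 25.6% of all symbols, with a median of -0.07. With artemisinin 26 (21.5%) were over 0.1 lower than DMSO and 14 (11.6%) higher, against 23.1% and 21.1% of all symbols, with a median of 0. At 1.5-fold, 4 (3.31%) were higher and 5 (4.13%) lower with pregnenolone, beside 4.64% and 3.75% of all symbols, which is near that background. With artemisinin 1 (0.826%) was higher and 2 (1.65%) lower, beside 2.35% and 2.26%.

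Among those lower with pregnenolone were fbxo5.L, an inhibitor of the anaphase-promoting complex, at 6.58 with artemisinin, 5.77 with pregnenolone and 6.55 with DMSO, and the chromatin gene hmgb2.L, at 9.27, 8.55 and 9.35. For cdca7.L the values were 5.38 with artemisinin, 4.61 with pregnenolone and 5.24 with DMSO. In all 3 the pregnenolone array alone was low. The 4 genes at least 1.5-fold higher with pregnenolone than with DMSO were btg2.S, gadd45a.S, myc.L and fen1.L. The antiproliferative gene btg2.S read 8.21 with artemisinin, 9.13 with pregnenolone and 8.02 with DMSO. Its relative btg1.L read 10.41, 11.15 and 10.59, and the other copy btg1.S 10.15, 10.14 and 10.30. The growth-promoting factor gene myc.L read 7.80 with artemisinin, 8.38 with pregnenolone and 7.68 with DMSO. Its other copy myc.S was above DMSO with both compounds, at 7.79 with artemisinin and 7.83 with pregnenolone against 7.29 with DMSO. The stress gene gadd45a.S was higher with both compounds, at 7.70 with artemisinin and 7.87 with pregnenolone against 6.80 with DMSO, whereas the cyclin G2 gene ccng2.L was lower with both, at 8.29 and 7.82 against 8.91 with DMSO, beside ccng2.S at 7.96, 7.92 and 7.99. The largest differences below DMSO with artemisinin were at stmn1.L, ccng2.L, dut.L and slbp.S. The tubulin-binding protein gene stmn1.L read 6.47 with artemisinin, 6.77 with pregnenolone and 7.13 with DMSO, beside stmn1.S at 8.82, 8.31 and 8.84. For the nucleotide enzyme gene dut.L the values were 6.36, 6.85 and 6.88 in that order. The histone messenger binding gene slbp.S, with a mean under the median probe set, read 5.29, 5.51 and 5.81, beside slbp.L at 7.76, 7.50 and 7.69.

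Both copies were measured for 34 genes, and 1.5-fold differences were mostly seen at 1 copy. With pregnenolone against DMSO 5 genes (14.7%) had a copy past 1.5-fold and 0 had both, where among all 2009 genes with both copies on the array 14.6% had a copy and 2.84% had both. With artemisinin against DMSO 1 gene (2.94%) had a copy and 0 had both, against 8.96% and 1.59% of all pairs. Between the compounds 6 (17.6%, all pairs 15.2%) had a copy past 1.5-fold, and ccnd1 had both. In direction, both copies were lower with pregnenolone than with DMSO for 10 genes (29.4%, against 21% of all pairs) and both higher for 1 (2.94%, against 23.1%). They were opposite for 6 (17.6%, against 19.2%), and at least 1 copy was identical for 17 (50%, against 36.7%). The median gap between the copies was 0.19 for pregnenolone minus DMSO, beside 0.148 over all pairs, and the largest was 1.68, at birc5l. Probes of one copy may also bind the other, so that a value may belong in part to the other copy.

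**Figure D5:**
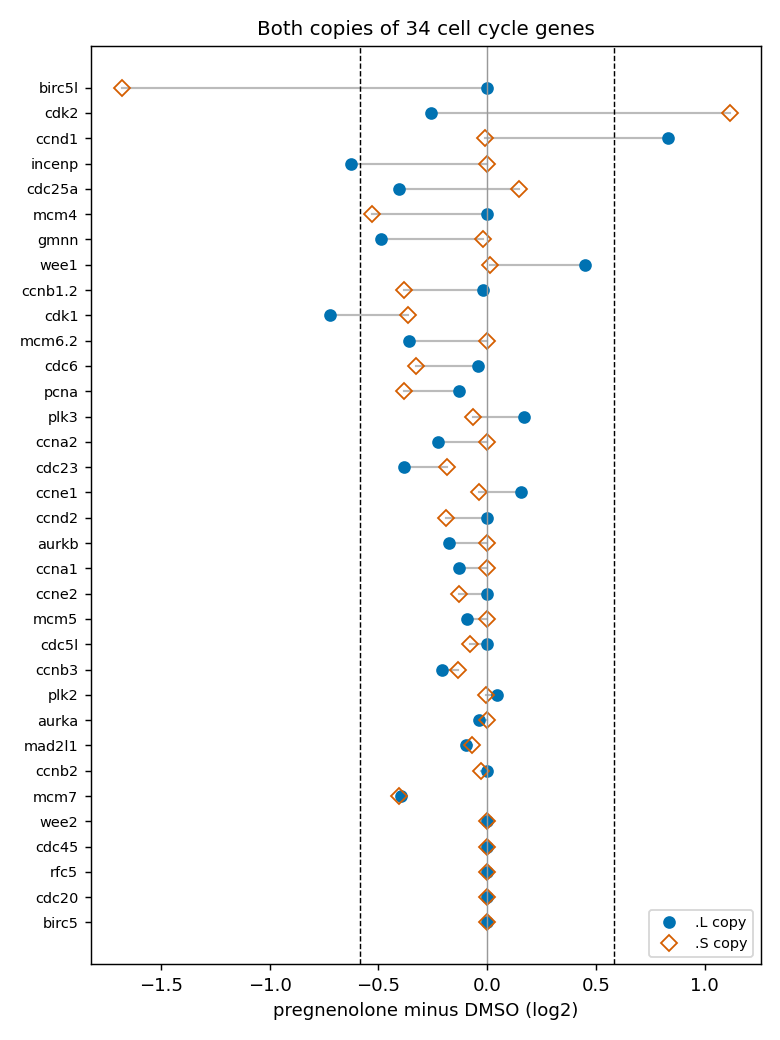
Log2 difference of pregnenolone minus DMSO (horizontal axis) for the .L copy (filled circles) and the .S copy (open diamonds) of 34 genes, ordered by the gap between the copies, with dashed lines at 1.5-fold. Both copies lie left of 0 for 10 genes, mcm7 and cdk1 among them, and no gene has both copies past 1.5-fold.

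Further probe sets of the same copy were read beside the probe set used. For pregnenolone minus DMSO, 16 of the 41 further probe sets had the sign of the probe set used, 1 had the opposite sign, and for 24 at least 1 of the pair was identical on both arrays. For artemisinin minus DMSO these counts were 8, 12 and 21, and for artemisinin minus pregnenolone 11, 10 and 20. These counts were not made over all symbols with several probe sets, so the agreement of signs cannot be set against a background share. The SD between probe sets of 1 copy among these genes was 0.18 for pregnenolone minus DMSO, 0.15 for artemisinin minus DMSO and 0.21 between the compounds. The lower quartile of the copies with pregnenolone, -0.18, is of the same size. This SD holds neither the spread between frogs nor that between arrays.

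Markers of other cell types were read beside these results. Over all symbols 25.6% were over 0.1 higher and 23.3% lower with pregnenolone than with DMSO. With artemisinin these shares were 21.1% and 23.1% against DMSO, and 23.9% and 27.6% against pregnenolone. Hepatocyte markers were high on every array, with a mean over 23 symbols of 11.82 with artemisinin, 11.62 with pregnenolone and 11.77 with DMSO. Of these 23, 6 were over 0.1 higher and 8 lower with pregnenolone than with DMSO, and 11 were over 0.1 higher and 4 lower with artemisinin than with pregnenolone. At 1.5-fold, 1 of the 23 was higher and 5 were lower with pregnenolone than with DMSO (all symbols 4.64% and 3.75%). With artemisinin against DMSO 2 were higher and 0 lower at 1.5-fold (all symbols 2.35% and 2.26%). Among leukocyte markers, 9 of 13 symbols were over 0.1 lower with pregnenolone than with DMSO and 0 higher. With artemisinin 5 were over 0.1 higher and 6 lower than with DMSO, and 10 were higher and 0 lower than with pregnenolone. Their summed linear signal was 7866 with artemisinin, 7023 with pregnenolone and 9018 with DMSO, and the defining marker ptprc.L lay under the median probe set (3.55, 3.33 and 3.55). Erythrocyte and erythroblast markers took another course, with 12 of 16 symbols over 0.1 lower and 0 higher with artemisinin against DMSO, and 4 lower and 3 higher with pregnenolone. Their summed linear signal was 43287 with artemisinin, 49121 with pregnenolone and 46907 with DMSO. Most of that sum came from the globin genes hbg1.L (14.53, 14.58 and 14.56 in that order) and hba1.S (13.94, 14.08 and 13.99). The median difference from DMSO over the 16 symbols was -0.54 with artemisinin and 0.01 with pregnenolone.

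Stromal, endothelial and biliary markers were lower than DMSO on both treated arrays for most symbols, with 18 of 25 over 0.1 lower and 2 higher with artemisinin and 13 lower and 1 higher with pregnenolone. Over all symbols 23.1% were over 0.1 lower and 21.1% higher with artemisinin, and 23.3% and 25.6% with pregnenolone. The tight junction gene cldn5.L went the other way with artemisinin, at 8.51, against 7.29 with pregnenolone and 7.20 with DMSO. The list had a summed linear signal of 8572 with artemisinin, 9423 with pregnenolone and 11744 with DMSO. Of 24 exocrine pancreas and gut symbols, 12 lay 1.5-fold or more below DMSO and 1 above it with artemisinin, and 12 below and 0 above with pregnenolone. Over all symbols 2.26% lay below and 2.35% above with artemisinin, and 3.75% below and 4.64% above with pregnenolone. The summed linear signal of this list was 818 with artemisinin, 724 with pregnenolone and 10150 with DMSO. Of 14 oocyte and ovary symbols, 1 reached the median probe set. The part of these cell types in the differences of the cell cycle genes was not tested, and fewer cells of a type and less RNA per cell cannot be told apart in such samples.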

How the data were processed

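Liver RNA was measured on 3 arrays, 1 per group. The authors deposited log2 expression values from RMA, per the submitters' processing notes, which give no version. The base of the logarithm follows from how RMA is defined and from the range of values. Of 32635 probe sets 96 were controls, and 15495 had 1 symbol in the platform annotation, 279 several and 16765 none. Probe sets with several symbols were left out, among them 4 with a symbol that the rule fits. A RefSeq gene table (Xenopus laevis, v10.1 assembly) held 134 of the 136 members by Entrez identifier and altered 0 symbols. Differences of log2 values, counts and medians were computed in Python 3.11.15 with pandas 2.3.3, over the members and over all 11303 symbols, with 1 probe set (that of the highest mean) for each. With 1 array per group no test or p-value was computed, and the number of arrays limits the precision. The code that makes the 1.5-fold calls was run on simulated data with planted shifts well beyond that size. The simulated noise was not taken from these arrays, so the run checked the code and not how reliable the calls are. The counts over 0.1 and of any difference were not checked in this way. Full values were given for members at least 1.5-fold different in any comparison, for the largest difference of each role in each comparison, and for their other copies and probe sets. Of the other proliferation genes, the 5 with the largest difference in each comparison were eligible. Other genes were named as examples after their values were seen. Members and lists were chosen with earlier results of these data known, and the band of 0.1 after the values were seen. Alternatives were a 2-fold threshold, a level filter, quantile normalization, centring on the median, a loess trend taken out (span 0.3) and the mean of probe sets. Further alternatives left out probe sets ending in _x_at, _s_at or _a_at, or 7 of the 8 cdc copies grouped as having a role elsewhere (all but cdc34.L).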

Additional observations from a re-analysis of the deposited data

How the results depend on the processing

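The 1.5-fold and 0.1 counts over the 136 copies were made again under several settings. Quantile normalization, centring on the median, a loess trend taken out and the mean of probe sets kept each of them within 1.5 times of its value. So did leaving out 7 of the 8 cdc copies grouped as having a role elsewhere (cdc34.L was kept), which left 129 copies. Counts of any difference were not made again under these settings. These settings moved the median of all symbols by at most 0.014 (log2) in size. At a 2-fold threshold 0 copies were lower with artemisinin than with DMSO, 1 was higher and 1 lower with pregnenolone than with DMSO, and 1 was higher and 1 lower with artemisinin than with pregnenolone. The level filter left 75 copies. Of these, 15 were over 0.1 higher with artemisinin than with DMSO, 8 over 0.1 higher and 31 over 0.1 lower with pregnenolone than with DMSO, and 33 over 0.1 higher with artemisinin than with pregnenolone, where 2 passed 1.5-fold. All of these counts are smaller because fewer copies were counted. Without probe sets whose names end in _x_at, _s_at or _a_at, 125 copies were left. Of these, 2 in place of 4 were 1.5-fold lower with pregnenolone. The only probe set of cdk1.L ends in _a_at, and birc5l.S was at -0.50 without its _s_at probe set. With a band of 0.2, chosen after seeing the data, 15 copies were higher with artemisinin than with DMSO, 8 were higher and 29 lower with pregnenolone than with DMSO, and 33 were higher and 8 lower with artemisinin than with pregnenolone. The share of all symbols past 0.2 was not counted, so the counts at this band cannot be set against it. The difference of ccnd1.S between the compounds fell under 1.5-fold in 2 of 7 settings (range -0.62 to -0.57). No called difference of a named copy changed sign. No replicate could be left out with 1 array per group. No paired analysis was possible because each group has 1 array. A pseudocount did not apply to log2 values, and promoter motifs were not analysed here.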
